A study of Homo sapiens with 15 samples.

Results

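CCL2, CCL7, CCL8, CCL11, CCL13 and CCL1 are neighbouring chemokine genes on the long arm of human chromosome 17, and they were followed across 5 groups of TF-1 cells. They are the 6 genes listed under those symbols among the 56624 symbols of the deposited expression table, and each stands on 1 row. They were chosen by symbol and place in the cluster, with their TPM levels in these libraries already known, so those levels are given as a description, without p-values.

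TF-1 is an established human erythroleukaemia line that depends on the cytokine GM-CSF for growth. The labels give unedited cells (Parental), which received GM-CSF at 2 ng/ml, and 4 base-edited lines kept without it. The edited lines carry the IDH1R132H, IDH2R140Q, IDH2R140W or IDH2R172K change in an isocitrate dehydrogenase gene, and each group has 3 poly(A) RNA-seq libraries. All groups grew in RPMI-1640 with fetal bovine serum and antibiotics. Genotype and GM-CSF change together in every comparison with Parental, so their effects cannot be told apart there, whereas the 4 edited lines share their medium. The labels do not say whether a line is 1 clone, nor whether its 3 libraries are separate cultures. The p-values therefore rest on a spread between libraries that may be only technical. Levels per gene do not show an edited base and so do not check the genotype labels.

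Chemokines are small secreted proteins that bind G-protein-coupled receptors on leukocytes and guide their migration. CCL2, CCL7, CCL8 and CCL13 are the monocyte chemoattractant proteins, which act largely through CCR2, with CCR1 and CCR3 shared among some of them. CCL11 is eotaxin, a CCR3 ligand that attracts eosinophils, and CCL1 is a ligand of CCR8. In leukocytes and stromal cells the transcription of CCL2 and CCL7 is known to be induced by inflammatory cytokines through NF-kB and AP-1 factors.

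On hg38 (GENCODE release 29) the 6 genes span 108.0 kb. CCL2 lies at chr17:34255218-34257203, CCL7 at chr17:34270221-34272242, CCL11 at chr17:34285668-34288334, CCL8 at chr17:34319036-34321402 and CCL13 at chr17:34356452-34358610, all on the plus strand. CCL1, at chr17:34360328-34363231, is the 1 gene on the minus strand. The starts of CCL2 and CCL7 are 15 kb apart. The longest exact run shared by a CCL2 and a CCL7 transcript is 23 bases, and over the 15 pairs of members it ranges from 8 to 26 bases, the longest between CCL8 and CCL11.

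RefSeq promoter windows (GRCh38.p14) were held for 4 of the 6 members, CCL7, CCL8, CCL13 and CCL1. CCL7 is shown in full because its level spread more widely over the edited lines than that of CCL2, 63.2 against 13.9 times between the highest and lowest mean. The sequence is the 250 bases before its start, chr17:34269971-34270220 on the plus strand, and the capitals mark an AP-1 match (TGANTCA, from -51 to -45) and a TATA-like element (ATAAAAG, from -29 to -23), counted backwards from the base before the start.
CCL7: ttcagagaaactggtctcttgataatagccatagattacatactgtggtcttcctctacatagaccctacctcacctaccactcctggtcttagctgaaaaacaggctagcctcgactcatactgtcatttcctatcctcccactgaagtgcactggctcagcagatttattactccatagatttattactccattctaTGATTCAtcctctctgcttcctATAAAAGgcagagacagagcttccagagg

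The 30 bases around the TATA-like element are set beside each other because all 4 windows hold it; capitals mark ATAAAAG, and the CCL1 sequence is from the minus strand.
CCL7 core: tgcttcctATAAAAGgcagagacagagctt
CCL8 core: tgctccctATAAAAGgcaggcagagccacc
CCL13 core: cactccctATAAAAGgccggcggaacagcc
CCL1 core: tttttcaaATAAAAGccctcagcattgcag

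Searched on the gene's own strand in the last 50 bases before the start, ATAAAAG stood in 1.01% of the 35116 promoters in the table. Among the 4 windows the AP-1 letters TGANTCA, searched like the following motifs on both strands over 250 bases, stood only in that of CCL7 and in 6.57% of all promoters. The NF-kB letters, GGG and CC with any 5 bases between them, were held by 54.4% of all promoters and stood only in the CCL1 window, in 2 overlapping matches. The STAT letters TTCNNNGAA stood in the windows of CCL7, CCL8 and CCL13 and in 6.57% of all promoters. The GATA letters GATAA stood in those of CCL7, CCL8 and CCL1 and in 20.4% of all promoters, and the C/EBP letters TTNNGCAA stood in none of the 4 and in 9.05% of all promoters. The RefSeq starts of CCL8 and CCL13 lie inside the GENCODE genes given above. The CCL8 core, at chr17:34319398-34319427, is thus within its GENCODE span, and the CCL13 core, at chr17:34356442-34356471, straddles its GENCODE start. A match is a string of letters, not a site shown to be bound.

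The levels below are in TPM, a unit scaled to transcript length and library size, so that levels of different genes can be compared. The read depth behind them is unknown. In bulk libraries more cells that express a gene and more RNA per cell cannot be told apart. Libraries correlated at 0.974 to 0.990 within groups, each was closest to one of its own group, and 12796 to 13792 symbols reached 1 TPM. In 2 libraries ribosomal protein genes took a larger share of TPM, 21.0% in Parental library 2 and 21.9% in IDH2R140W library 3, against 13.7% to 18.4% in the others.

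CCL2, the founding monocyte chemoattractant, was the most abundant member. It read 3.70, 2.23 and 1.96 TPM in Parental libraries 1, 2 and 3, and 68.77, 68.68 and 74.50 TPM in those of IDH2R140W. The IDH1R132H libraries read 23.04, 19.75 and 27.97 TPM and the IDH2R172K libraries 22.69, 21.43 and 24.81 TPM. The IDH2R140Q libraries read 5.32, 5.89 and 3.99 TPM. IDH2R140W thus stood above every other library, IDH1R132H and IDH2R172K overlapped, and IDH2R140Q lay just above Parental without overlap.

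The CCL2 means were 2.63 ± 0.936 TPM in Parental, 5.07 ± 0.975 in IDH2R140Q, 22.98 ± 1.71 in IDH2R172K, 23.6 ± 4.14 in IDH1R132H and 70.7 ± 3.33 in IDH2R140W (SD, n = 3 each). Relative to Parental the mean was 26.9 times as high in IDH2R140W, 8.97 times in IDH1R132H, 8.74 times in IDH2R172K and 1.93 times in IDH2R140Q. The lowest edited library was above the highest Parental library by 18.6, 5.34, 5.79 and 1.08 times in the same order, so the IDH2R140Q libraries clear the Parental range narrowly. All 3 edited libraries stood above all 3 Parental libraries for 17.3% of the 14881 tested genes in IDH2R140W, 36.2% in IDH1R132H, 31.9% in IDH2R172K and 40.4% in IDH2R140Q. Lack of overlap alone was therefore common among genes.

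Among the edited lines, which share their medium, IDH2R140W had 2.995 times the mean CCL2 level of IDH1R132H, 3.075 times that of IDH2R172K and 13.9 times that of IDH2R140Q. None of these pairs overlapped, but the share of all tested genes without overlap between edited lines was not counted. IDH1R132H and IDH2R172K were 4.66 and 4.54 times above IDH2R140Q, also without overlap. Their own means differed by a factor of 1.03, less than the spread between their libraries. Without the 2 libraries rich in ribosomal protein transcripts mean CCL2 was 2.83 TPM in Parental and 68.7 TPM in IDH2R140W, and mean CCL7 in IDH2R140W was 3 TPM.

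CCL7, the next gene along the cluster and a ligand of CCR1, CCR2 and CCR3, had a different order. It was listed at 0 in all 3 Parental libraries. It read 21.67, 24.65 and 22.57 TPM in IDH1R132H and 2.39, 3.61 and 6.4 TPM in IDH2R140W. The IDH2R140Q libraries read 1.73, 1.31 and 0.43 TPM, and those of IDH2R172K read 0.31, 0.23 and 0.55 TPM. CCL7 was therefore highest in IDH1R132H, with IDH2R140W next, and the ranges of IDH2R140Q and IDH2R172K overlapped near the bottom.

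The CCL7 means were 22.96 ± 1.53 TPM in IDH1R132H, 4.13 ± 2.06 in IDH2R140W, 1.16 ± 0.663 in IDH2R140Q and 0.363 ± 0.167 in IDH2R172K (SD, n = 3 each). No fold against Parental is given because Parental is listed at 0. The IDH1R132H mean was 5.56 times that of IDH2R140W, 19.9 times that of IDH2R140Q and 63.2 times that of IDH2R172K. IDH2R140W was 3.57 times above IDH2R140Q and 11.4 times above IDH2R172K. These 5 pairs did not overlap, whereas IDH2R140Q and IDH2R172K, whose means differed by 3.18 times, did. As for CCL2, the share of all tested genes without overlap between edited lines was not counted.

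**Figure D1:**
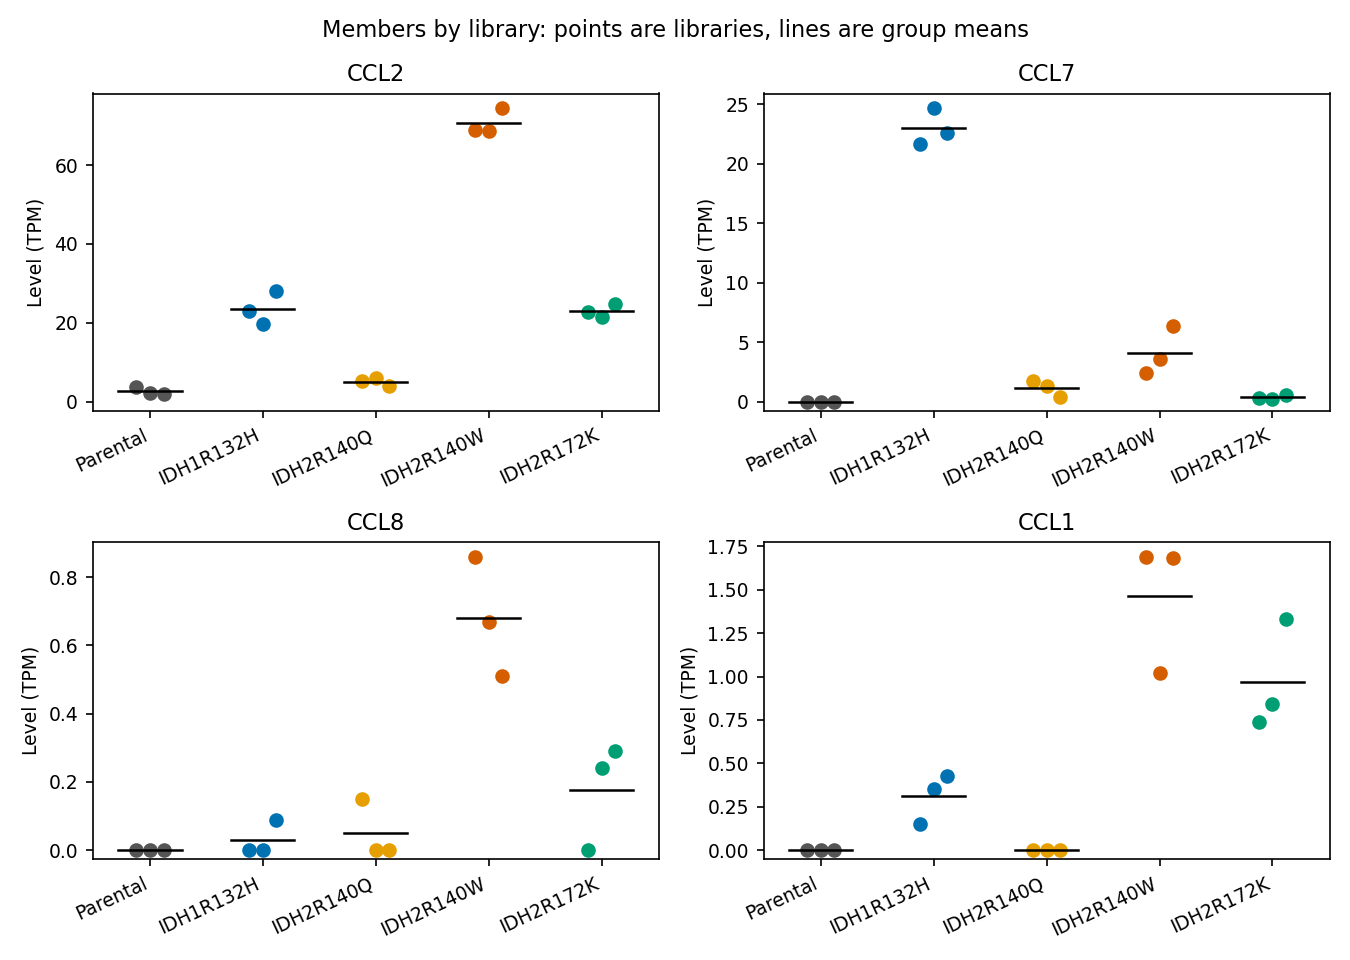
Level of CCL2, CCL7, CCL8 and CCL1 in TPM (vertical axis, its own scale in each panel) in the 3 libraries of each group (points) with the group mean (line). CCL2 is highest in IDH2R140W and CCL7 in IDH1R132H, and CCL11 and CCL13, listed at 0 in all 15 libraries, are not drawn.

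The other members were low or listed at 0, as the plot of levels by library shows for CCL8 and CCL1. CCL8, another monocyte chemoattractant, read 0.86, 0.67 and 0.51 TPM in IDH2R140W. It read 0, 0.24 and 0.29 TPM in IDH2R172K, 0, 0 and 0.09 TPM in IDH1R132H, and 0.15, 0 and 0 TPM in IDH2R140Q, and was listed at 0 in all 3 Parental libraries. CCL8 was thus above 0 in 7 of 15 libraries and under 1 TPM in all of them, and IDH2R140W was the 1 group with every library above 0.

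CCL1, the CCR8 ligand at the far end of the cluster and on the other strand, read 1.69, 1.02 and 1.68 TPM in IDH2R140W and 0.74, 0.84 and 1.33 TPM in IDH2R172K. It read 0.15, 0.35 and 0.43 TPM in IDH1R132H and was listed at 0 in every library of Parental and IDH2R140Q. The IDH2R140W and IDH2R172K ranges overlapped, and both lay above IDH1R132H. CCL1 was above 0 in 9 libraries, against 12 for CCL7 and all 15 for CCL2. CCL11 and CCL13 were listed at 0 in all 15 libraries.

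CCL2, CCL7 and CCL1 passed the filter for testing, at least 1 TPM in at least 3 libraries, and CCL8, CCL11 and CCL13 did not. CCL7 and CCL1 passed only through the edited lines in which they are high. At the edge of that filter CCL1 reached 1 TPM in 4 libraries, and CCL8, just outside it, peaked at 0.86 TPM.

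The summed level of the 6 members was 1.96 to 3.70 TPM in Parental, 4.42 to 7.20 in IDH2R140Q, 22.74 to 26.98 in IDH2R172K, 44.75 to 51.06 in IDH1R132H and 73.71 to 83.09 in IDH2R140W. No group's range overlapped another's, though how often single genes separate all the groups was not counted. CCL7 made up 44.2% to 55.1% of that sum in IDH1R132H, 9.73% to 24.0% in IDH2R140Q, 3.24% to 7.70% in IDH2R140W and 1.01% to 2.04% in IDH2R172K. The CCL7 to CCL2 ratio was 0.941, 1.25 and 0.807 in the IDH1R132H libraries, so the genes were at similar levels there. It was 0.0348, 0.0526 and 0.0859 in IDH2R140W and 0.0137, 0.0107 and 0.0222 in IDH2R172K, where CCL2 made up most of the sum. The ratio was 0.325, 0.222 and 0.108 in IDH2R140Q, whose level of both genes was low.

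**Figure D2:**
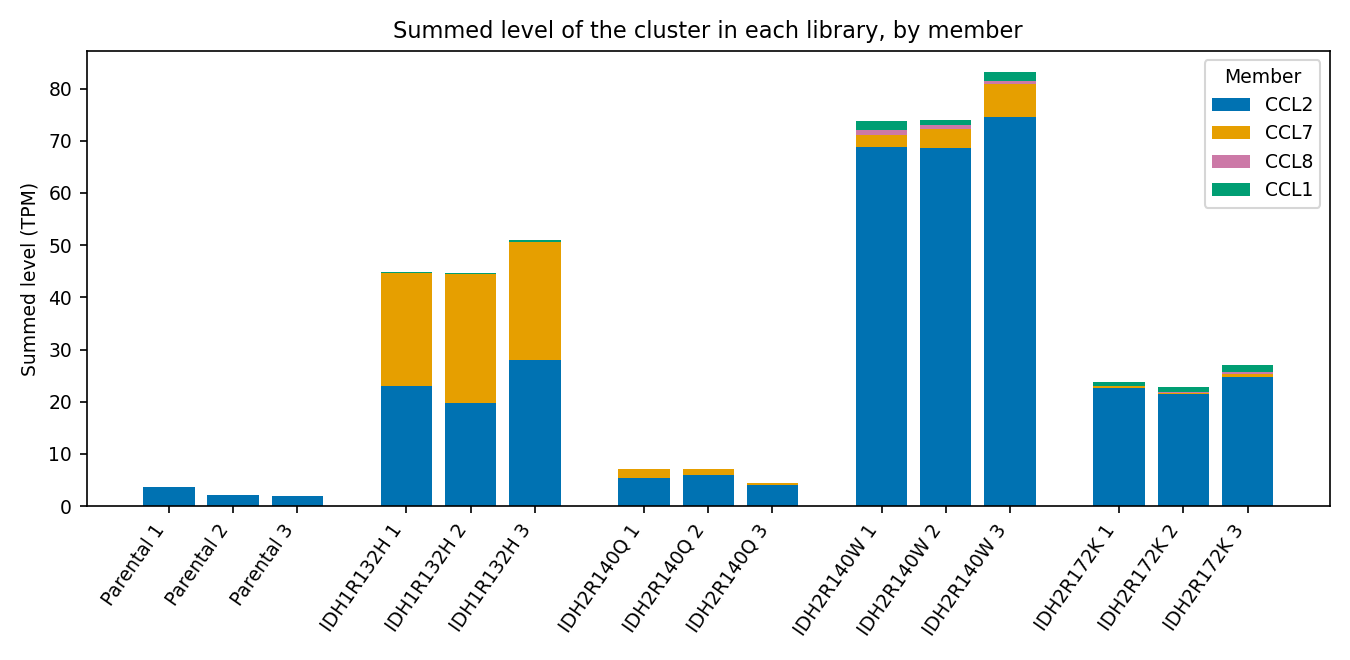
Summed level of the members in TPM (vertical axis, from 0) in each of the 15 libraries, with the bar split into CCL2, CCL7, CCL8 and CCL1. The IDH1R132H bars are divided about evenly between CCL2 and CCL7, the IDH2R140W and IDH2R172K bars are mostly CCL2, and CCL11 and CCL13 add 0.

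Over the 15 libraries on the log2(TPM + 1) scale, Pearson's r was 0.889 between CCL2 and CCL1, 0.533 between CCL2 and CCL7 and 0.168 between CCL7 and CCL1. These points fall into 5 groups that share a genotype and medium, so r describes the order of the groups more than any relation between libraries.

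The genes whose pattern was most like that of CCL2 over the same libraries were SLC45A3, a transporter (r = 0.949), TRMT61A, a tRNA methyltransferase subunit (0.933), CCDC94 (0.918), RP11-489D6.2 (0.908), CPNE5 (0.907), CLPTM1 (0.898), NR1H2, the liver X receptor beta (0.897), and SPP1, osteopontin (0.895). SLC45A3 read 5.23, 4.47 and 5.76 TPM in Parental and 33.67, 30.82 and 25.15 TPM in IDH2R140W. Those most like CCL7 were RELB, an NF-kB subunit (0.963), TUBB3, a tubulin on 2 rows of the table (0.957), CXCL10, an interferon-induced chemokine (0.956), NLRP12 (0.952), VGF (0.949), PHLDA1 (0.942), PPP1R15A (0.942) and MBD3 (0.936). The lists for CCL2 and CCL7 hold no gene in common. These genes were picked as the highest r among all tested genes on these same values, so a high r follows from the selection. How many genes reach a similar r was not counted. RELB and CXCL10 return below in the gene lists, and their match with CCL7 there is not separate from this ranking.

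Of 10 markers of TF-1 and erythro-myeloid progenitors, 8 or 9 reached 1 TPM in every library of each group, while GATA1, which stands on more than 1 row, was listed at 0 throughout.

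Monocytes and fibroblasts are known sources of CCL2. The 12 monocyte and macrophage markers summed to 174.2-221.5 TPM in Parental, 169.2-179.1 in IDH1R132H, 154.8-197.2 in IDH2R140W, 166.4-183.2 in IDH2R140Q and 230.5-240.7 in IDH2R172K, with 3 or 4 of 12 at 1 TPM in every library of a group. LYZ at 76.74 to 134.51 TPM, CD68 at 29.46 to 89.8 and ITGAM at 11.25 to 44.33 made up most of these sums. CSF1R read 20.16, 20.45 and 18.23 TPM in IDH2R172K against 2.3, 1.73 and 2.84 in Parental. CD14, CD163, S100A8, S100A9 and VCAN did not pass 1.51 TPM in any library. FCN1, a monocyte lectin on 1 row, was listed at 0 in all 15 libraries. So were FCGR1A and MRC1, which stand on more than 1 row, so that their zeros may not be measurements. The 8 fibroblast markers summed to 0.35 to 2.74 TPM over all libraries, with none at 1 TPM in every library of a group. The 8 mast cell and basophil markers summed to 83.9-100.1 TPM in Parental, 327.4-358.1 in IDH1R132H, 400.6-441.0 in IDH2R140W, 618.1-697.7 in IDH2R140Q and 378.0-393.2 in IDH2R172K. FCER1A, an IgE receptor subunit, made up most of each sum, at 77.6 ± 7.91 TPM in Parental and 298.1 ± 14.3 in IDH1R132H (SD, n = 3). Some others of these markers were also higher in IDH1R132H than in Parental, and some were not. MS4A2 was at 33.6 ± 0.664 against 0.413 ± 0.171 TPM and CPA3 at 1.78 ± 0.26 against 0.4 ± 0.233 TPM (SD, n = 3). The tryptase gene TPSB2 was at 2.27 ± 0.902 against 2.77 ± 0.346 TPM in the same comparison. The histamine-forming enzyme HDC was at 0.623 ± 0.460 against 1.29 ± 0.580 TPM (SD, n = 3). TPSB2 was at 60.1 ± 10.4 TPM in IDH2R140W and HDC at 109.5 ± 3.18 TPM in IDH2R172K (SD, n = 3). CMA1 was listed at 0 in all libraries of Parental, IDH1R132H and IDH2R140W. The 6 lymphocyte markers summed to 60.9-85.7 TPM in Parental, 30.2-36.9 in IDH1R132H, 7.76-11.4 in IDH2R140W, 1.25-3.98 in IDH2R140Q and 51.0-58.6 in IDH2R172K. MS4A1, a B-cell marker, was listed at 0 in all 15 libraries. The part of the ribosomal share and of these marker sums in the members' levels was not tested.

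Receptors, other chemokines, regulators and flanking genes were tested with limma on log2(TPM + 1) over all 15 libraries. A gene was called changed where its p, adjusted by Benjamini and Hochberg's method over the 14881 tested genes, was below 0.05 and its log2 difference at least 1. By that rule 10.8% of tested genes changed in IDH1R132H (7.74% higher, 3.09% lower), 10.0% in IDH2R140Q (7.56% higher, 2.47% lower), 4.78% in IDH2R140W (2.68% higher, 2.10% lower) and 9.31% in IDH2R172K (6.36% higher, 2.96% lower) against Parental. Among the 4 edited lines 19.3% differed by a moderated F-test. After median-ratio scaling, which brings the median difference near 0, the higher and lower counts of 1152 and 460 became 818 and 684 in IDH1R132H, 1125 and 367 became 715 and 587 in IDH2R140Q, and 946 and 440 became 757 and 634 in IDH2R172K. The 4 comparisons share the Parental libraries. Log2 differences are given in log2(TPM + 1), a scale on which low genes seem to change less than they do. The median difference over all tested genes was 0.16 in IDH1R132H, 0.034 in IDH2R140W, 0.23 in IDH2R140Q and 0.13 in IDH2R172K.

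Of the receptors, CCR1, CCR2 and CCR8 were low. CCR2, the main receptor of CCL2, read 0.07 to 0.19 TPM in Parental, 0.10 to 0.20 in IDH1R132H, 0.21 to 0.31 in IDH2R140Q, 0.11 to 0.27 in IDH2R140W and 1.34, 0.91 and 0.58 TPM in IDH2R172K. CCR1 did not pass 1.03 TPM in any library. CCR8, the receptor of CCL1, was above 0 in 1 library. CCR1, CCR2 and CCR8 did not pass the filter for testing.

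CCR3, the receptor that CCL7, CCL11 and CCL13 share, read 0.31, 0.96 and 0.71 TPM in Parental and 10.16, 9.39 and 12.55 TPM in IDH2R172K, without overlap. Its log2 difference was 2.83 (SE 0.256, limma adjusted p = 1.17e-06). In the other edited lines CCR3 was at 1.61 ± 0.316 TPM in IDH1R132H, 0.503 ± 0.0814 in IDH2R140Q and 0.597 ± 0.723 in IDH2R140W (SD, n = 3 each), and was not called changed. CCR3 was therefore highest in the line with the lowest mean CCL7 of the 4 edited lines. The groups show no general inverse order, however. The CCL7 range of IDH2R172K overlapped that of IDH2R140Q, where CCR3 was low, and Parental, with CCL7 listed at 0, had CCR3 at 0.66 TPM. The atypical receptor CCRL2 also rose in IDH2R172K, from 5.32 ± 0.394 to 16.0 ± 3.20 TPM (SD, n = 3; log2 difference 1.41, SE 0.145, limma adjusted p = 3.99e-06).

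ACKR1 and ACKR2 are atypical receptors that bind CCL2 without G-protein signalling, and neither was called changed in any line. ACKR1, listed as DARC, was highest in IDH2R140Q, at 11.7 ± 0.838 against 6.42 ± 0.892 TPM in Parental (SD, n = 3; log2 difference 0.78, under the limit of 1). ACKR2 lay between 0.65 and 2.31 TPM. In all, 2 of the 4 tested receptors, CCR3 and the atypical CCRL2, rose in IDH2R172K against Parental, against 6.36% of all tested genes. Among the edited lines 1 of 4 differed, CCR3, by 2.95 between the highest and lowest group mean (moderated F-test, adjusted p = 8.42e-07). Of all tested genes 19.3% differed among those lines. Against Parental limma called 0 of the 4 receptors in each line other than IDH2R172K. At an unadjusted p under 0.05 there were 3 in IDH1R132H, 3 in IDH2R140Q and 1 in IDH2R140W. Of all tested genes 10.8%, 10.0% and 4.78% were called in these lines. The receptors' median log2 difference was 0.55, 0.52, 0.016 and 0.88 in IDH1R132H, IDH2R140Q, IDH2R140W and IDH2R172K.

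Set among all 48 chemokines by group mean, CCL2 was the highest in IDH2R140W and IDH2R172K. In IDH1R132H its mean was also highest, but its gap to CCL7 was smaller than the spread between libraries, and CCL7 was the higher in library 2. In Parental its mean lay just under that of CXCL8, the neutrophil chemoattractant, at 2.65 ± 0.462 TPM (SD, n = 3), a gap smaller than the spread between libraries. In IDH2R140Q it followed the platelet chemokine PPBP, at 38.2 ± 0.927 TPM (SD, n = 3), and CCL28, at 5.55 TPM, whose gap to CCL2 was smaller than the CCL2 spread. In IDH2R140W CCL7 followed CCL2 and CXCL8, but its gap to CXCL3, at 3.78 ± 0.486 TPM (SD, n = 3), was smaller than its own spread, and CXCL3 was the higher in libraries 1 and 2. The 42 chemokines outside the cluster summed to 10.1 to 11.2 TPM in Parental, 35.1 to 38.2 in IDH1R132H, 58.8 to 60.5 in IDH2R140Q, 39.2 to 44.3 in IDH2R140W and 20.7 to 25.6 in IDH2R172K. That order differs from the order of the cluster's sum, which was lowest among the edited lines in IDH2R140Q. PPBP alone made up most of the IDH2R140Q sum, at 37.16, 38.86 and 38.65 TPM, against 1.14 to 1.86 TPM in IDH2R140W. The difference in order thus rests largely on that gene and does not describe the other chemokines in general.

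Of those 42 chemokines, 10 passed the filter, and 12 were listed at 0 in every library, 5 of the 42 standing on more than 1 row. Against Parental 3 of the 10 rose in IDH1R132H, 4 in IDH2R140W, 2 in IDH2R140Q and 1 in IDH2R172K, and none fell. Their median log2 difference was 0.73, 0.865, 0.43 and 0.63 in that order. Of all tested genes 7.74%, 2.68%, 7.56% and 6.36% rose in the same order of lines. CXCL8 read 2.37, 2.39 and 3.18 TPM in Parental and 19.77, 21.93 and 22.52 TPM in IDH2R140W, where CCL2 was also highest (log2 difference 2.62, SE 0.167, limma adjusted p = 7.88e-08). In IDH1R132H its difference of 1.04 fell below the limit in 7 of 23 alternatives, to 0.85 at the lowest. CXCL10 read 0, 0.14 and 0.15 TPM in Parental and 3.04, 2.77 and 3.13 TPM in IDH1R132H, where CCL7 was highest (log2 difference 1.86, limma adjusted p = 4.68e-06).

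PPBP rose by 4.97 on the log2 scale in IDH2R140Q, 3.23 in IDH1R132H and 1.68 in IDH2R172K. In IDH2R140W the monocyte and lymphocyte attractants CCL4 and CCL3 rose by 1.60 and 1.16 and the neutrophil attractant CXCL3 by 1.05. CCL3 and CCL4 have near-identical copies in the genome, so their values are uncertain. CCL3 reached an adjusted p of 0.0558 with only the libraries compared, against 0.002 to 0.0558 over its alternatives, and CXCL3 fell below the limit in 4 of 22 alternatives, to 0.92 at the lowest. CCL28, a mucosal chemokine, rose by 1.44 in IDH2R140Q. Among the edited lines 6 of the 10 differed, against 19.3% of all tested genes.

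**Figure D3:**
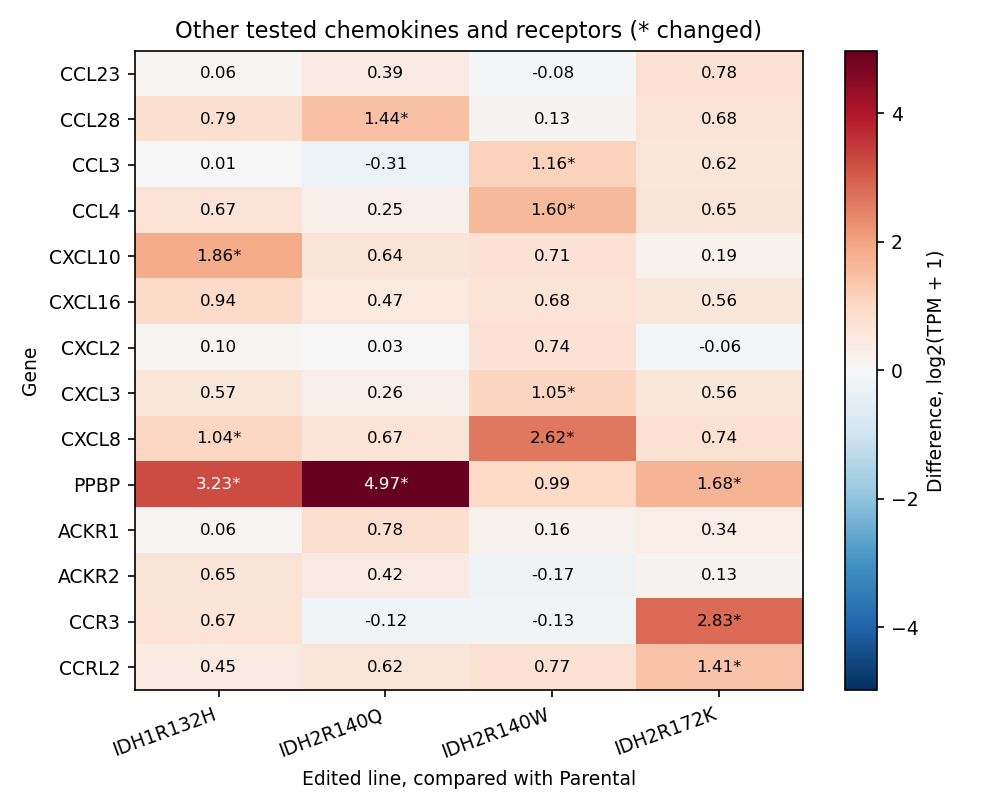
Log2 difference of each edited line from Parental, in log2(TPM + 1), for the 10 tested chemokines outside the cluster and the 4 tested receptors (rows), with colour and printed value showing the same quantity. An asterisk marks a changed gene; CCR3 and CCRL2 rose in IDH2R172K, and the marks of CXCL8 in IDH1R132H, CXCL3 in IDH2R140W and CCL3 in IDH2R140W are lost under some alternatives.

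Of 59 regulators of CCL2 and CCL7 (factors of the NF-kB, AP-1 and other families, inducing cytokines and their receptors, mRNA decay factors and trimming proteases), 52 were tested. Of these, 10 rose and 6 fell in IDH1R132H, 4 rose and 3 fell in IDH2R140Q, 8 rose and 1 fell in IDH2R140W, and 4 rose and 2 fell in IDH2R172K. Their median log2 difference was 0.31, 0.21, 0.23 and 0.20. After median-ratio scaling 6 rose and 7 fell in IDH1R132H, 4 and 5 in IDH2R140Q, 8 and 2 in IDH2R140W, and 2 and 2 in IDH2R172K. Among the edited lines 19 of the 52 regulators differed, against 19.3% of all tested genes. Against Parental 7.74% of all tested genes rose and 3.09% fell in IDH1R132H, and 7.56% and 2.47% in IDH2R140Q. The shares were 2.68% and 2.10% in IDH2R140W and 6.36% and 2.96% in IDH2R172K. TNF, which stands on more than 1 row, was listed at 0 in all libraries.

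Of 11 NF-kB factors and inhibitors tested, 3 rose in IDH1R132H, the line with the most CCL7, against 7.74% of all tested genes. Of the same 11, limma called 0 changed in IDH2R140Q, IDH2R140W and IDH2R172K, and 4 differed among the edited lines. In these comparisons 10.0%, 4.78%, 9.31% and 19.3% of all tested genes were called. A gene not called may still differ by less than the limit of 1, as RELB did. RELB read 12.69, 14.89 and 10.72 TPM in Parental and 46.30, 48.93 and 43.56 TPM in IDH1R132H (log2 difference 1.79, SE 0.111, limma adjusted p = 2.32e-08). Its means in the other edited lines were 17.3 to 23.5 TPM, and its difference among the edited lines was 1.37 (moderated F-test, adjusted p = 8.68e-07). RELB was also above Parental by 0.64 in IDH2R140Q, 0.84 in IDH2R140W and 0.42 in IDH2R172K. These 3 differences were under the limit of 1 (limma adjusted p = 0.000414, 7.8e-05 and 0.008). TNFAIP3, an inhibitor of NF-kB signalling, rose by 1.86 in IDH1R132H and differed among the edited lines (1.88, F-test adjusted p = 2.41e-05). Its difference in IDH2R140Q was 0.96, just under the limit (limma adjusted p = 0.00254). The third, the inhibitor NFKBIE, rose by 1.10 in IDH1R132H, and fell below the limit after median-ratio scaling (0.90) and quantile normalisation (0.91), which leaves RELB and TNFAIP3.

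Of 8 AP-1 factors tested, 3 rose in IDH1R132H, 3 in IDH2R140W, 2 in IDH2R140Q and 1 in IDH2R172K. Of all tested genes 7.74%, 2.68%, 7.56% and 6.36% rose in the same order of lines. FOSB rose in all 4 lines, by 1.60 in IDH1R132H, by 1.35 in IDH2R140Q, 1.27 in IDH2R140W and 1.08 in IDH2R172K, the last falling to 0.86 without Parental library 2. ATF3, a stress-induced factor, rose by 2.21, 1.39 and 1.17 in the first 3 of these lines, with 0.90 for IDH2R140W without Parental library 2. JUN rose by 1.02 in IDH1R132H and fell below the limit after median-ratio scaling (0.82) and without Parental library 2 (0.94) or IDH1R132H library 2 (0.98).

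Among cytokines known to induce CCL2, oncostatin M (OSM) read 8.24, 9.86 and 8.71 TPM in Parental and 34.63, 40.28 and 34.45 TPM in IDH2R140W, the line with the most CCL2 (log2 difference 1.91, limma adjusted p = 2.21e-06). OSM read 1.83, 2.38 and 1.47 TPM in IDH1R132H, where it fell by 1.79 and CCL2 was above Parental. IL1B, another such cytokine, read 101.49, 97.67 and 93.43 TPM in Parental and 207.80, 205.08 and 210.44 TPM in IDH2R172K. It rose by 1.08 there, falling to 0.925 after median-ratio scaling and 0.95 after quantile normalisation. IL1A fell by 1.135 in IDH1R132H. Whether OSM or any other regulator has a part in the members' levels was not tested. CSF2, which encodes GM-CSF itself, fell by 1.35 in IDH1R132H and 1.05 in IDH2R140Q. In IDH2R140W and IDH2R172K it was above Parental by 0.93 and 0.83, under the limit of 1. It differed among the edited lines by 2.28 (moderated F-test, adjusted p = 2.62e-09). The CSF2 level in the cells says nothing of the cytokine added to the medium. TNFRSF1B, a TNF receptor, fell in all 4 lines, by 1.16 (IDH2R172K) to 1.85 (IDH1R132H). The myeloid factor CEBPA rose by 1.08 in IDH2R140W, with 0.91 without Parental library 2 and 0.99 without IDH2R140W library 1, and CEBPD fell by 1.62 to 1.87 in the other 3 lines. IRF5, an interferon regulatory factor, rose by 1.2 in IDH2R140W and 2.68 in IDH2R172K. MMP2, a protease that trims CCL7, read 0.45, 0 and 0 TPM in Parental and 8.16, 11.62 and 10.81 TPM in IDH1R132H, and rose in all 4 lines, by 1.48 (IDH2R140W) to 3.29 (IDH1R132H).

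**Figure D4:**
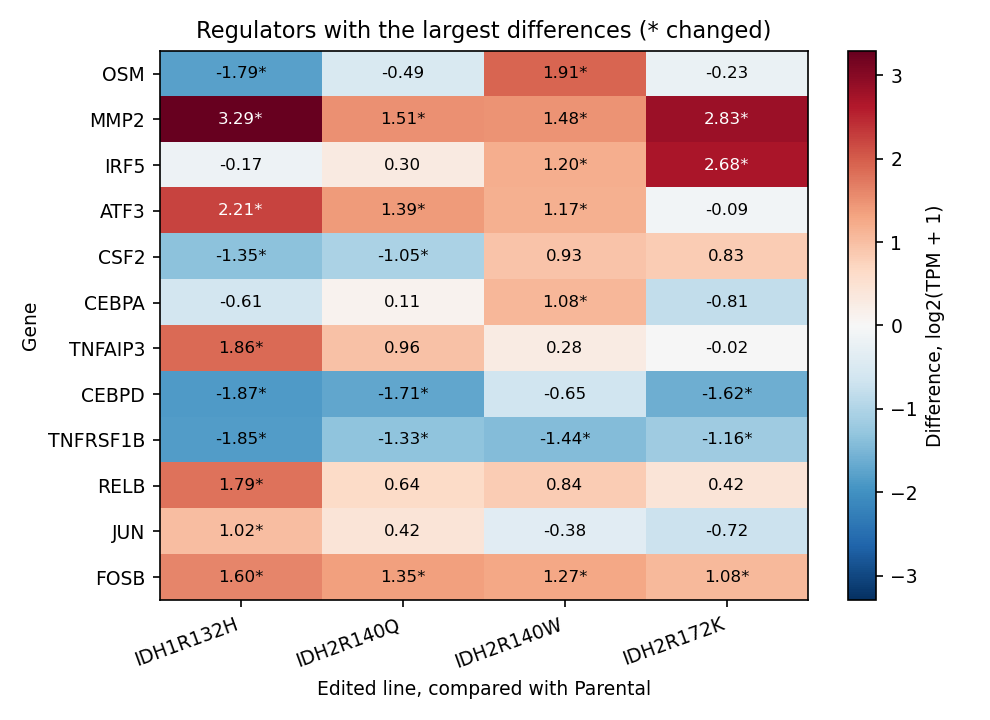
Log2 difference of each edited line from Parental, in log2(TPM + 1), for the 12 regulators with the largest differences (rows), with colour and printed value showing the same quantity and an asterisk marking a changed gene. RELB and TNFAIP3 are marked in IDH1R132H, OSM is marked lower in IDH1R132H and higher in IDH2R140W, and the marks of JUN in IDH1R132H, FOSB in IDH2R172K, and ATF3 and CEBPA in IDH2R140W are lost under some alternatives.

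The 6 members sit in a region with few expressed neighbours. ASIC2, which ends 80.3 kb before CCL2, was above 0 in 1 library, at 0.20 TPM. Among the 19 flanking genes looked at, the nearest tested were TMEM98, 1310 kb before CCL2, and CCT6B, a chaperonin subunit gene 565 kb beyond CCL1. Both distances are between the facing ends of the genes. Of 19 flanking genes 12 were tested: 2 rose in IDH1R132H, 3 rose in IDH2R140Q, 1 rose in IDH2R140W, and 1 rose and 1 fell in IDH2R172K. Their median log2 difference was 0.33, 0.79, 0.19 and 0.49, and 4 of the 12 differed among the edited lines. Of all tested genes 7.74% rose in IDH1R132H, 7.56% in IDH2R140Q and 2.68% in IDH2R140W. In IDH2R172K 6.36% rose and 2.96% fell, and 19.3% differed among the edited lines.

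TMEM98, a membrane protein gene, read 12.37, 12.71 and 10.86 TPM in Parental and 3.79, 3.89 and 2.80 TPM in IDH2R172K, where it fell by 1.54 on the log2 scale (SE 0.134, limma adjusted p = 8.56e-07) while CCL2 was above Parental. CCT6B, at 0.18 to 1.51 TPM, was called in no line, with log2 differences of 0.0093 to 0.16. ZNF830, which lies within CCT6B on the other strand, was not called either, with differences of 0.077 to 0.51. Schlafen family genes lie farther out, and SLFN11, which is known to block stalled replication forks, rose by 2.13 in IDH2R140Q, 1.74 in IDH2R140W and 1.25 in IDH2R172K, the last falling to 0.99 without Parental library 2. SLFN5 rose by 1.18 in IDH1R132H and 1.17 in IDH2R140Q, both under the limit after quantile normalisation (0.99 and 0.91), and SLFN13 by 1.40 in IDH2R140Q. RFFL rose by 1.37 in IDH1R132H. It overlaps LIG3 on the other strand, and whether the counting used strand is not given in the sources used here, so reads of the overlap could belong to either gene.

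**Figure D5:**
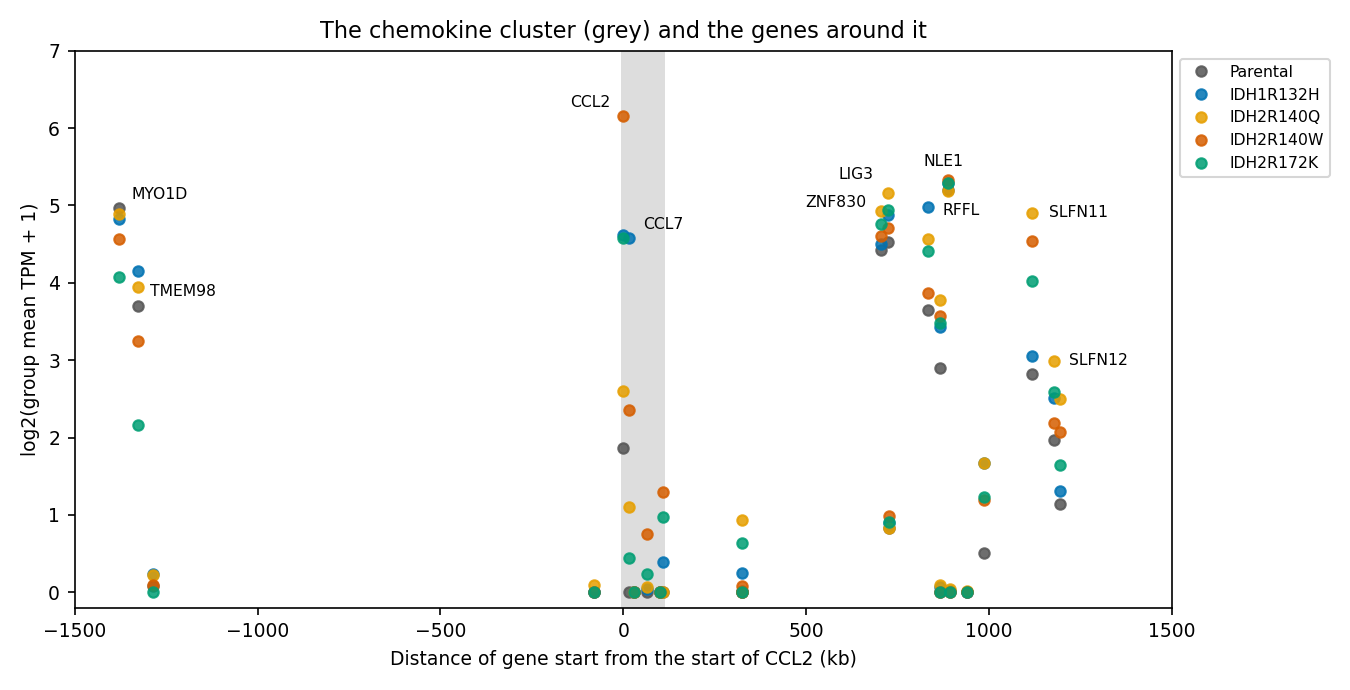
Group mean level as log2(TPM + 1) (vertical axis) of the 6 members and 19 flanking genes against the distance of each gene's start from that of CCL2 in kb (horizontal axis), with the cluster shaded grey and 1 colour per group. CCL2 and CCL7 are the cluster's high points, and TMEM98 is lowest in IDH2R172K. On either side the nearest tested of these 19 genes lie 1310 and 565 kb from the cluster, measured between gene ends, not starts.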

How the data were processed

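Poly(A) RNA from 15 TF-1 libraries, 3 in each of 5 groups, was sequenced. The authors deposited 1 table of TPM values per gene symbol, with columns summing to 999972 to 999985. STAR 2.7.3, RSEM, HTSeq, DESeq2 and the hg38 build appear in the submitters' processing notes without a role or order. The sources used here do not give the annotation release, strand setting or filters. TPM keeps no depth, so no counting error can be given. Rows with the same symbol were summed, except 6 rows with date-like symbols, which were left out. Of the 2985 symbols on more than 1 row, 2441 are listed at 0 in all libraries, as are all 12 such symbols of the gene lists used here, so their zeros may not be measurements.

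The 14881 genes that reached 1 TPM in 3 or more libraries were fitted on log2(TPM + 1) with limma 3.58.1 (R 4.3.3), with a mean-variance trend and a common spread over all 15 libraries. Each edited line was compared with Parental, and the edited lines with each other by a moderated F-test in which the highest minus the lowest group mean had to reach 1. The fit was tested on simulated data with known changes.

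The members and gene lists were chosen with earlier results of these data known. All members and the receptors are named, except 1 receptor that is not reported here, with the changed genes of the other lists, up to 12 for the regulators, and the 8 genes most like CCL2 and CCL7 each by Pearson's r. ASIC2, CCT6B, ZNF830, TNF, IL1A, IL1B, NFKBIE and the marker genes named fall outside that rule and were chosen after their values were seen. Coordinates are from GENCODE release 29 and promoter sequences from RefSeq. Alternatives were a pseudocount of 0.1, no filter or one at 5 TPM, median-ratio and quantile scaling, only the libraries compared, a replicate block, the first row of each symbol, and each library left out. Leaving out Parental library 2 and IDH2R140W library 3 together was chosen after seeing the data.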

Additional observations from a re-analysis of the deposited data

How the results depend on the processing

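TPM keeps no read depth, so a value listed at 0 carries no upper limit and the low values of CCL8 and CCL1 carry no counting error. Of 35 counts and levels (5 counts in each of 5 comparisons, 5 CCL2 and 5 CCL7 levels), 22 stayed within 1.5 times the reported count, or 1 SD of the reported level, in every alternative run, and 13 did not in at least 1. Of 105 single-gene results 79 kept their call and direction in every alternative and 26 did not. The cause was not tested except where stated.

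Mean CCL2 in IDH2R140W was 75.3 TPM after median-ratio scaling and 74.6 TPM after quantile normalisation, and CCL7 in Parental became 0.0087 TPM after quantile normalisation, which replaces zeros by the mean of equal ranks. With each library left out in turn, mean CCL2 was 2.095 to 2.965 TPM in Parental, 21.4 to 25.5 in IDH1R132H, 4.66 to 5.61 in IDH2R140Q, 68.7 to 71.6 in IDH2R140W and 22.1 to 23.8 in IDH2R172K. Mean CCL7 was 22.1 to 23.6, 0.87 to 1.52, 3 to 5.01 and 0.27 to 0.43 TPM in the 4 edited lines. Taking the first row of each symbol changed no member, since each stands on 1 row.

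With a pseudocount of 0.1, IDH1R132H had 1 changed receptor and 6 changed other chemokines, IDH2R140Q had 5 changed flanking genes, IDH2R140W had 1115 changed genes in all against 711, IDH2R172K had 2 changed other chemokines, and 3 receptors differed among the edited lines. With at least 5 TPM in 3 libraries fewer genes are tested. Then 1 flanking gene changed in IDH1R132H, 1 flanking gene and 1 other chemokine in IDH2R140Q and 1 other chemokine in IDH2R140W, and 2 other chemokines differed among the edited lines. After quantile normalisation 1 flanking gene changed in IDH1R132H.

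With each library left out, the number of changed flanking genes was 3 to 5 in IDH2R140Q (5 without IDH2R140Q library 3) and 1 to 2 in IDH2R140W (2 without Parental library 3 or IDH2R140W library 3). Changed other chemokines were 1 to 2 in IDH2R172K (2 without IDH2R172K library 2), and 1 to 2 receptors differed among the edited lines (2 without IDH1R132H library 1 or IDH2R172K library 1). Over all tested genes the counts were 1440 to 1839 in IDH1R132H, 1339 to 1731 in IDH2R140Q, 688 to 803 in IDH2R140W and 1303 to 1570 in IDH2R172K, and 2745 to 2998 among the edited lines.

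Some receptors that were not called changed turned direction. ACKR1 in IDH1R132H became -0.11 after median-ratio scaling and -0.15 after quantile normalisation, and ACKR2 in IDH2R172K became -0.031 after quantile normalisation. CCR3 in IDH2R140Q ranged from -0.29 to 0.0049 with each library left out, the latter without Parental library 2, alone or with IDH2R140W library 3. CCR3 in IDH2R140W ranged from -0.47 to 0.078 and was 0.0035 without Parental library 2, 0.078 without IDH2R140W library 1, 0.017 without IDH2R140W library 3 and 0.15 without Parental library 2 and IDH2R140W library 3 together.

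Groups share replicate numbers. Over 30 pairs of same-numbered libraries of different groups, the correlation of deviations from the group means was -0.285 to 0.223, with 1 pair over 0.1. Over 60 pairs with different numbers it was -0.37 to 0.499, with 4 pairs over 0.1. Of the 15 libraries 7 were closest to one of their own number. With means of 3 libraries this check neither shows nor excludes a pairing by number. With the replicate number as a block the changed genes were 1610 in IDH1R132H, 710 in IDH2R140W, 1493 in IDH2R140Q and 1383 in IDH2R172K, 2861 differed among the edited lines, and every list count of changed genes equalled that without the block.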
